A study of Drosophila melanogaster with 2 samples.

Results

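Peaks that lay just inside genes, with their summits 1 to 500 bp downstream of a transcription start site (TSS), made up 477 of the 2516 reproducible CG16779-eGFP peaks on the chromosome arms (19.0%). They were chosen by position alone. Of the 1391 peaks with a summit within 500 bp of any annotated TSS, the 288 within reach of both genes of a divergently transcribed protein-coding pair were set aside. The other peaks were assigned to a side by the strand of the nearest TSS, which left these 477 downstream and 626 upstream, and 0 summits on a TSS base itself. The nearest summits outside the limits were at RpL8 and CG13893, each 1 bp upstream, and at amn and Spase22-23, 508 and 509 bp downstream. Just inside them were side-IV at 1 bp, vig2 at 2 bp, rept at 499 bp and Fbw5 at 500 bp.

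The peaks came from chromatin immunoprecipitation and sequencing of whole Drosophila melanogaster embryos aged 8 to 24 hours. All embryos carried a transgene for the protein of CG16779 fused to eGFP, and an antibody against GFP recovered the fusion from chromatin sonicated to 200 to 800 bp. There were 2 biological replicates of this single group, and the control library named in the labels was not analysed here. Read depth is unknown, and signal is the score of a peak from the authors' peak caller, as deposited.

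A TSS is the base where RNA polymerase begins a transcript. The DNA before it holds the promoter and many binding sites of regulatory proteins, while the DNA just after it is transcribed into the 5' UTR, the untranslated start of the mRNA, or into a first intron or coding exon. In flies the downstream side also carries core promoter sequences, such as the downstream promoter element, and is where paused polymerase and the first nucleosome lie. Because an eGFP fusion is recovered from whole embryos, the cells that contribute to a peak cannot be told apart.

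The sequences at 3 of the 5 strongest members are shown first, since they carry the highest signals of the set. Each is given 5' to 3' on the strand of its gene, from release 6 of the RefSeq reference genome (dm6), with the summit base in capitals. The first runs across the end of a 5' UTR into an intron, and the next 2 lie in noncoding exons.
tank, chr2L:4837831-4837860, minus strand, 139 to 168 bp downstream: gcacagcgataagtAtgtaagttaaagttt
lncRNA:CR44619, chrX:12752346-12752375, plus strand, 479 to 508 bp downstream: atgattatcgaaattTgaagaaaatacaaa
lncRNA:CR31840, chr2L:14024067-14024096, minus strand, 3 to 32 bp downstream: aaaatcaaataacaTgtgtactctgtacat
The 2 members with the highest signal among intronic summits are shown over 101 bp, the width of the window used for motifs. Both windows lay wholly in introns and were rich in A and T.
CG31612, chr2L:21794918-21795018, minus strand: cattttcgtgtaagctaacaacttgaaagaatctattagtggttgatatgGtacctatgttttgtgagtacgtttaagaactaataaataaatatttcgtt
Cftr, chr3R:24543151-24543251, minus strand: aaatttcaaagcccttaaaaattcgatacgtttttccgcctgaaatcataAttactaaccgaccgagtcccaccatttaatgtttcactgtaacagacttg
The coding exon member with the highest signal is shown for its base composition.
CG32195, chr3L:18114582-18114611, plus strand, 298 to 327 bp downstream: cgcaggtcacccgatGgcgctctcgaatca
GC content was 28.7% over the CG31612 window, 36.6% over the Cftr window and 63.3% over the 30 bases of CG32195.

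Another set of sequences shows the letters that differed in frequency from upstream peaks, in capitals, at the members with the highest signal that held them. RpS4 and Cerk, a ceramide kinase gene, held CTTTTC, which contains the pyrimidine run of the TCT initiator of fly ribosomal protein genes.
RpS4, chr3L:13041792-13041821, plus strand, 36 to 65 bp downstream: ccgcaaatctgcCTTTTCCTTTTCctgttg
Cerk, chr3R:5361842-5361871, minus strand, 195 to 224 bp downstream: aggtttgaacccCTTTTCtaacgggtccaa
Nckx30C, a sodium/calcium-potassium exchanger gene, and CG42337 held CACACACA on either strand.
Nckx30C, chr2L:9746385-9746414, minus strand, 81 to 110 bp downstream: tgctcggtgtaTGTGTGTGcagaaactttt
CG42337, chr3L:21193317-21193346, minus strand, 17 to 46 bp downstream: agcgcgcgtcgCACACACActgcgtatacg
RpS15Aa was the only member of 477 with the DNA replication-related element, DRE, TATCGATA, which is bound by the factor Dref.
RpS15Aa, chrX:13337695-13337724, minus strand, from 19 bp upstream to 10 bp downstream: gtccggctaacTATCGATAggcacgttgag

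Members clustered directly behind the start site. The median distance was 73 bp (quartiles 36 and 170 bp), and 296 of 477 members (62.1%, exact 95% interval 57.5 to 66.4%) lay 1 to 100 bp downstream. That distance held 20.7% of the territory, the 9.13 Mb that the same rule would class as downstream, so the share was 2.99 times that of the bases (exact binomial test, adjusted p = 1.9e-84). The next 100 bp held 72 members, 0.758 times the share of the bases (exact binomial test, adjusted p = 0.00824). The bins from 201, 301 and 401 bp held 35, 31 and 43 members, and each was below its share of bases (exact binomial tests, largest adjusted p = 2.9e-10). The binomial tests take summits as independent, although all peaks came from the same 2 libraries and neighbouring peaks share fragments.

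**Figure D1:**
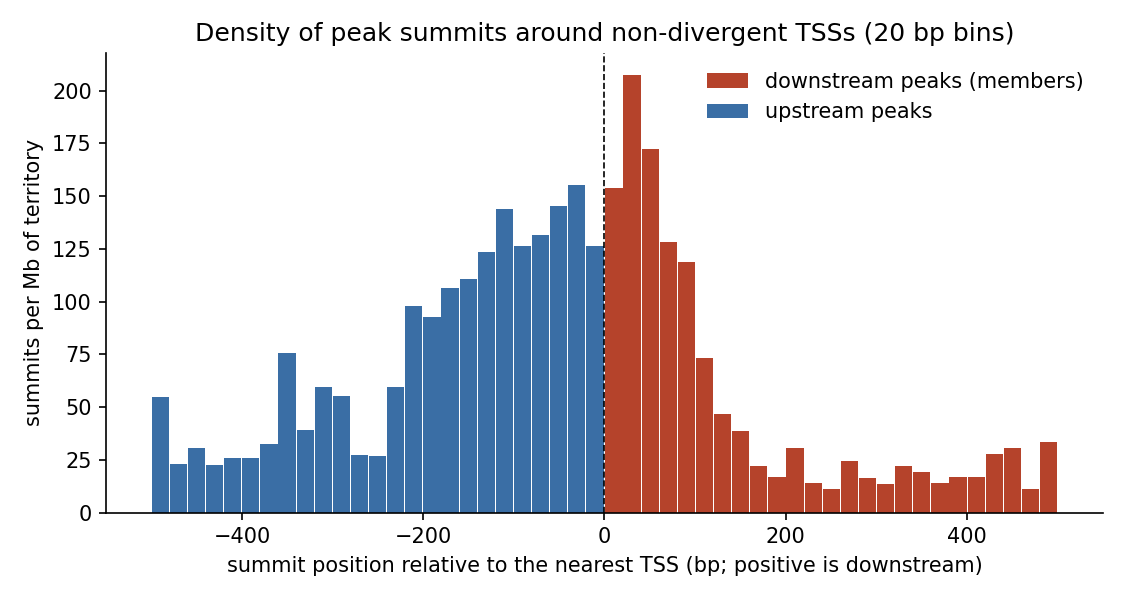
Summits per Mb of territory (vertical axis) in 20 bp bins of position relative to the nearest TSS (horizontal axis, bp, positive downstream), for downstream members in red and upstream peaks in blue. The members reach 208 summits per Mb at 21 to 40 bp and 22.1 per Mb at 161 to 180 bp, and upstream peaks decline over a longer stretch.

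Compared with upstream peaks, the members were dense over a shorter stretch. Within 100 bp the density was 156 summits per Mb downstream and 137 per Mb upstream. From 101 to 200 bp it was 39.6 per Mb downstream and 116 per Mb upstream. Over the whole 500 bp the members had 52.2 summits per Mb, against 81.8 per Mb upstream. The members were 43.2% of the 1103 non-divergent promoter peaks (exact 95% interval 40.3 to 46.2%), whereas 54.4% of the bases were downstream (exact two-sided binomial test, p = 1.3e-13).

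The side was also compared between peaks that passed and that missed the reproducibility threshold. The ranked list made from both replicates held 135475 peaks on the arms, of which 1.93% had an irreproducible discovery rate (IDR, a score of how reproducibly a peak is ranked) of at most 0.01. The downstream share was 43.2% among listed peaks, against 61.9% among the ranked peaks that missed this threshold, 12197 downstream and 7513 upstream (Fisher's exact test, odds ratio 0.469, p = 6.2e-34). Listed members also sat nearer the start site, with 62.1% within 100 bp against 19.8% of the downstream peaks that missed the threshold, and median distances of 73 and 257 bp.

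Most member summits lay in a 5' UTR, the class of 327 of the 477 (68.6%) against 29.8% of the territory (exact binomial test, adjusted p = 4.0e-67). Coding exons held 61 summits (12.8%, against 35.1% of bases, adjusted p = 7.4e-28 by the exact binomial test). Noncoding exons held 31 (6.50%, against 11.96% of bases, adjusted p = 0.000146 by the exact binomial test), a call that was lost in the own list of replicate 1 (0.677 times, adjusted p = 0.133), among the peaks above the median signal of the list (0.619 times, adjusted p = 0.0721), with TSSs up to 1000 bp away (0.753 times, adjusted p = 0.0671) and with protein-coding TSSs only (0.550 times, adjusted p = 1). Bases of 3' UTRs held 2 summits (0.419%, against 1.68% of bases, adjusted p = 0.0357 by the exact binomial test). That call was lost in the own list of either replicate and among the peaks above the median signal of the list. Unannotated bases also held 2 summits. Introns held 54 (11.3%, against 19.9% of bases, adjusted p = 1.4e-06 by the exact binomial test), but this call did not hold once distance was taken into account.

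Since 5' UTRs crowd near the TSS, the shares were also set against bases at the members' own distances, a comparison chosen after seeing the data. The 5' UTR share was then 1.38 times that of the bases (68.6% against 49.7%, exact binomial test, adjusted p = 4.6e-16). Coding exons stayed lower at 0.559 times (exact binomial test, adjusted p = 8.5e-08), and introns were at 1.05 times (11.3% against 10.7%, exact binomial test, adjusted p = 0.657). Within 100 bp of the TSS 275 of 296 summits were in a 5' UTR (92.9%, against 63.6% of bases) and 3 were in a coding exon (1.01%, against 14.2% of bases). Beyond 100 bp coding exons held 58 of 181 summits (32.0%, against 40.6% of bases).

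**Figure D2:**
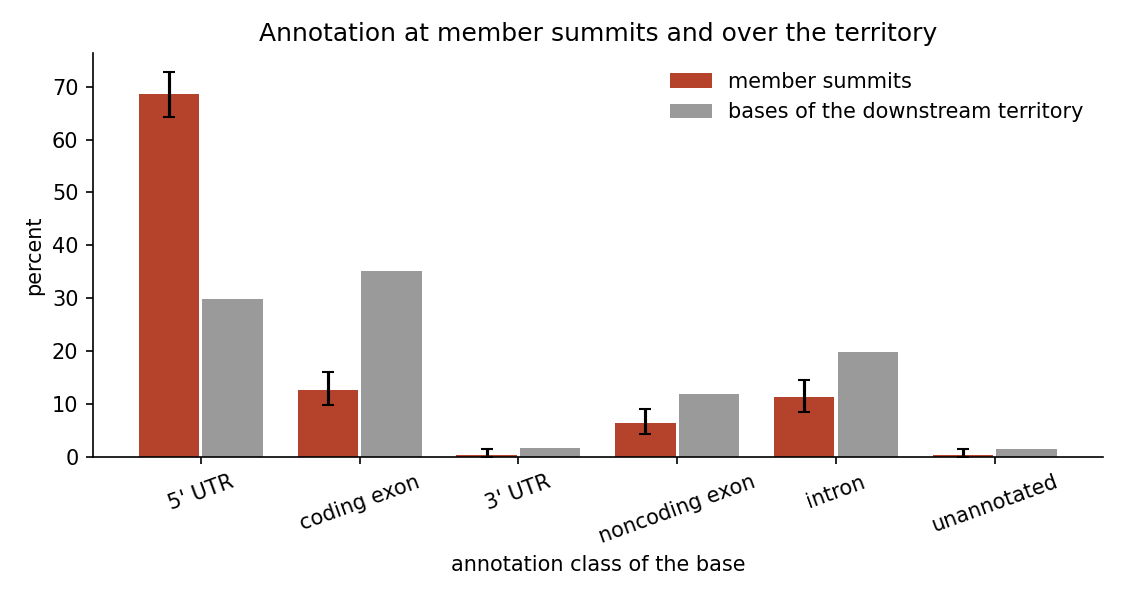
Percent (vertical axis) of member summits in red, with exact 95% intervals, and of all bases of the downstream territory in grey, by annotation class. The 5' UTR is the class with more summits than bases, 68.6% against 29.8%.

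The members had lower signal than the other promoter peaks. Their median signal, the mean of the 2 replicates, was 41.3 (quartiles 35.6 and 53.9), against 49.9 for upstream peaks and 49.5 for peaks between divergent pairs. By replicate, the members' medians were 42.5 in replicate 1 and 40.5 in replicate 2, and upstream medians were 49.6 and 48.7. Of the 475 members with a signal in each replicate, 213 lay above the list median of 42.9 (44.8%), against 400 of 626 upstream peaks (63.9%, Fisher's exact test, odds ratio 0.459, adjusted p = 7.4e-10). Of the 288 divergent-pair peaks 65.6% lay above it (Fisher's exact test, odds ratio 0.426, adjusted p = 2.8e-08). Elk and Nagk had no matched signal in replicate 2 and are left out of these values.

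The difference in signal from upstream peaks moved with base composition and with distance, in comparisons chosen after seeing the data. Among peaks with GC content above the list median, the members' median was 40.1 and the upstream median 42.3 (Fisher's exact test on shares above the median of those peaks, odds ratio 0.924, p = 0.682). Among summits within 100 bp of the TSS the medians were 42.5 and 45.0 (Fisher's exact test, odds ratio 0.721, p = 0.0691). The cut of this second test was the median of those summits together with the 1125 peaks over 500 bp from any TSS. The part of base composition or distance in the difference was not tested. Against divergent pairs, by the same cuts, the odds ratio was 0.535 among GC-rich peaks and 0.491 within 100 bp (Fisher's exact tests, adjusted p = 0.0387 and 0.000268).

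**Figure D3:**
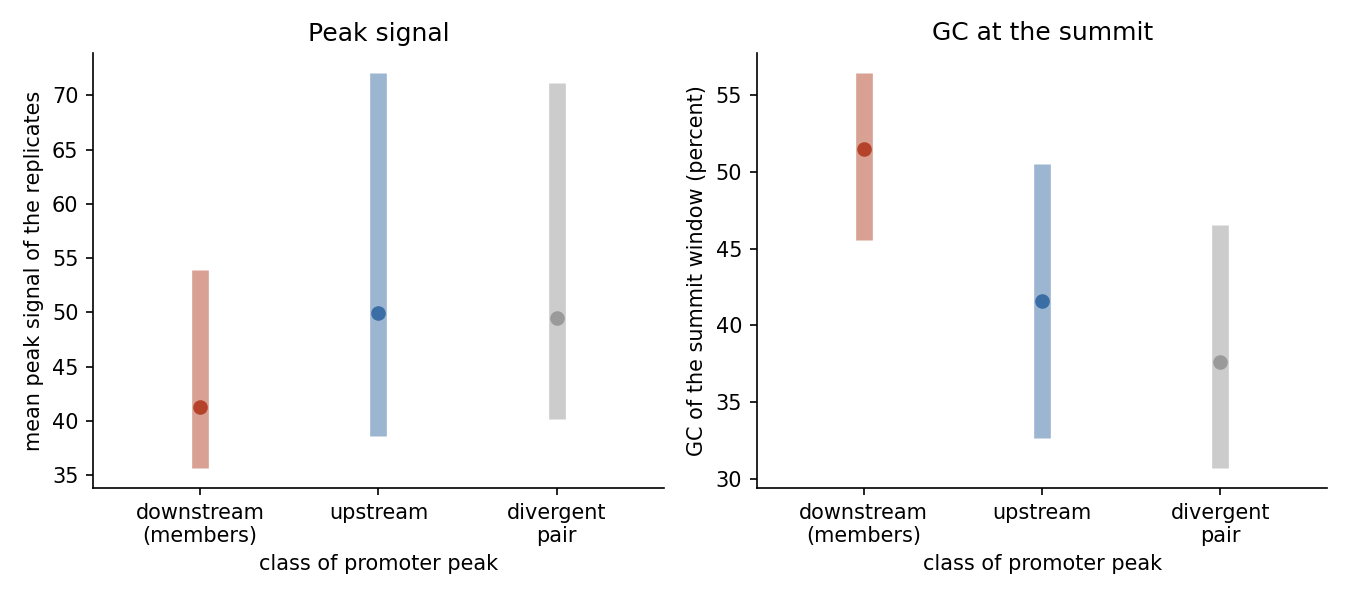
Median (points) and interquartile range (bars) of the mean peak signal of the replicates, left, and of the GC content of the 101 bp window at the summit in percent, right, for downstream members, upstream peaks and peaks of divergent pairs. The members have the lowest median signal (41.3) and the highest median GC content (51.5%).

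Support in each replicate alone was also lower. A summit lay within 100 bp in the own thresholded list of each replicate for 112 of 477 members (23.5%), against 30.9% of the whole conservative list, 42.2% of upstream peaks and 45.1% of divergent-pair peaks (Fisher's exact tests, odds ratios 0.421 and 0.373, adjusted p = 1.5e-10 and 8.0e-10). Another 251 members (52.6%) were in neither own list, against 45.7% of the whole conservative list, 34.5% of upstream peaks and 28.5% of divergent-pair peaks. Among GC-rich peaks the support was 20.1% for members, against 26.2% upstream and 31.4% at divergent pairs (Fisher's exact tests, adjusted p = 0.0831 and 0.0604). Replicate 2 had the higher signal at 198 of 475 members (41.7%), against 51.6% of upstream and 60.4% of divergent-pair peaks (Fisher's exact tests chosen after seeing the data, adjusted p = 0.00185 and 1.6e-06). Across members, Spearman's rho between the replicates was 0.50, and across upstream peaks 0.71, as a description of peaks that share the same libraries. The members' mean signals spanned a narrower range (quartiles 35.6 and 53.9, against 38.6 and 72.1 upstream), so these values of rho are not directly comparable.

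**Figure D4:**
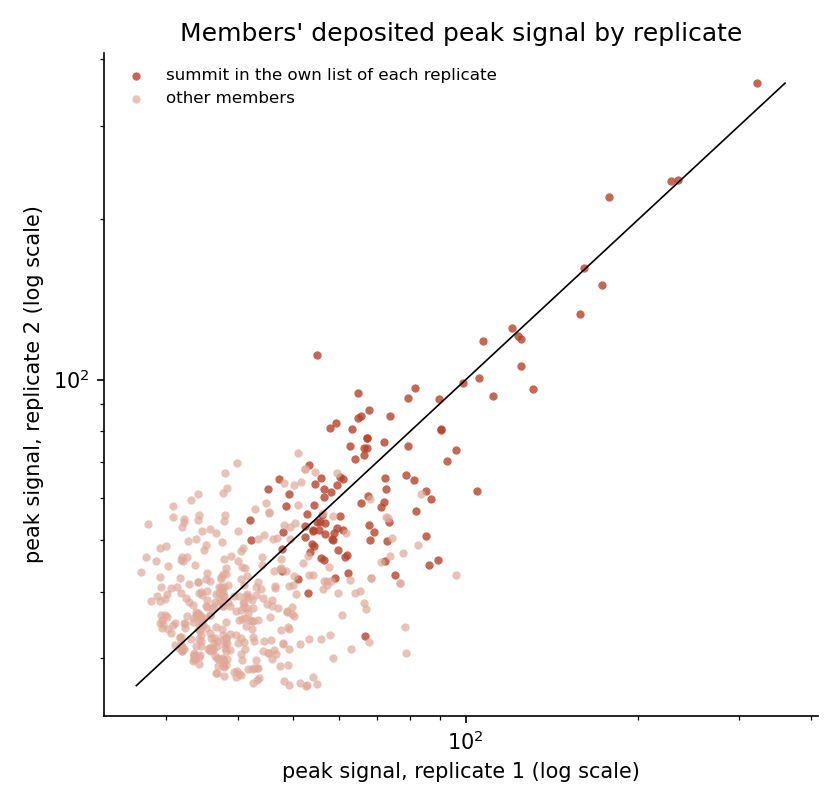
Deposited peak signal of each of 475 members in replicate 1 (horizontal) and replicate 2 (vertical), both on log scales, with the line of equal signal. Members also found by each replicate on its own (dark) fill the upper range, and the upper quartile of the mean signal is 53.9.

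Some peaks were not separate measurements. There were 21 members that shared the interval of a replicate with another peak of the list (4.40%, against 3.54% of the whole list). Among them 12 shared it with another member, at CG18336, CG4686, Vti1b, brat, chrb and lncRNA:CR44676. The paired summits carried identical signals, for example 38.3 and 32.8 at both brat members. With such peaks counted once, the comparisons of share, signal and support kept their direction and their side of the threshold.

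The 20 strongest members found in each replicate's own list had signals from 85.7 to 341. Spearman's rho between the replicates was 0.88 across them, with no log2 ratio of replicate 2 to replicate 1 outside -0.45 to 0.31. These 20 were chosen by the same signals and by a call in each replicate, so their agreement is partly set by the choice. Over all members the log2 ratios ran from -1.36 to 1.02. The summits of the 20 lay in 5' UTRs in 10 cases, introns in 6 and noncoding exons in the other 4, and in no coding exon. Their median GC content was 42.6%, against 51.5% over all members, and 7 of them also lay upstream of another TSS within 500 bp, against 75 of all 477 members.

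The highest of these was asRNA:CR45928, an antisense RNA gene beside eIF6, a factor of large ribosomal subunit maturation. With eIF6 as the other gene there, the summit of asRNA:CR45928 also lay upstream of another TSS within 500 bp. Its signal was 322 in replicate 1 and 361 in replicate 2. GstE13, a glutathione S-transferase, followed with 234 and 238. Both stood above tank, at 228 and 236. The 2 long noncoding RNA genes lncRNA:CR44619 and lncRNA:CR31840 had 178 and 220, and 173 and 151. Noncoding TSSs were the nearest for 43 members in all, 31 of them ncRNA genes, 7 snoRNA genes, 3 snRNA genes and 2 pseudogenes.

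The protein-coding genes that followed had varied roles. CG18622 reached 161 and 162, CG2811 159 and 133, and CG14024 123 and 121. The sperm ferlin gene mfr reached 120 and 125, although Tsp66E also had a TSS within 500 bp of that peak. Rgk2, of a family of small GTPases that inhibit calcium channels, had 131 and 96.2, and bgcn, needed for germ cells to leave the stem cell state, had 105 and 101. Both of its replicates were thus nearly equal, while Rgk2 was higher in replicate 1. The exchanger gene Nckx30C had 89.8 and 92.1, and RpS4, a protein of the small ribosomal subunit, had 79.2 and 92.3. Also among the 20 was the noncoding gene lncRNA:CR44149, with 125 and 106, and brwl also had a TSS within 500 bp of that peak.

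The intronic members in this group were CG31612, Cftr, egh, rudhira, CG8128 and a noncoding transcript listed as FBtr0445485_df_nrg. CG31612 had a signal of 125 and 119, and Cftr, for a chloride channel of the ABC transporter family, had 107 and 118. The glycolipid mannosyltransferase gene egh had 112 and 93.4, rudhira had 98.8 and 98.5, the noncoding transcript 81.5 and 96.3, and CG8128 had 90.6 and 81.0. Over all 54 intronic members the median signal was 48.6, and 23 of them were in each replicate's own list.

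Coding exon members were the weaker end of the set. Their median signal was 34.6, with a highest value of 53.2, and 1 of 61 was in each replicate's own list. That member was CG32195, with 54.1 in replicate 1 and 52.3 in replicate 2, and pst came next with 46.5 and 40.5. Their median GC content was 57.4%, and Spearman's rho between replicates was -0.01 across them. Their signals spanned only 31.5 to 53.2, so this rho is not comparable with the 0.50 over all members. Among all members split at the quartiles of mean signal, rho was -0.66, -0.83 and -0.59 in the lower groups and 0.26 in the highest. A split on the mean of the replicates itself lowers rho within a narrow group, so these values do not measure agreement between replicates. The 327 members in 5' UTRs had a median signal of 42.5, with 80 in each replicate's own list. These classes differ in distance and base composition, and no test was run between them.

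Member summits were GC-rich. The 101 bp window at the summit had a median GC content of 51.5% at members (quartiles 45.5 and 56.4%) and 41.6% at upstream peaks. GC content was above the list median of 44.6% at 363 of 477 members (76.1%), against 267 of 626 upstream peaks (42.7%, Fisher's exact test, odds ratio 4.28, p = 2.6e-29). Within 100 bp of the TSS 78.7% of members and 58.2% of upstream peaks lay above a recomputed median (Fisher's exact test, odds ratio 2.66, p = 2.7e-07), in a comparison chosen after seeing the data. That median was taken over the summits within 100 bp together with the 1125 peaks over 500 bp from any TSS.

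Promoters without a listed peak were also richer in GC on the downstream side. At the 434 members with a protein-coding nearest TSS, mean GC content was 50.6% at the summit and 46.5% at the mirrored position. At the same distances from 11850 non-divergent protein-coding TSSs without a listed peak within 500 bp, it was 43.9% downstream and 41.2% at the mirrored positions upstream. Both sides of the members' start sites thus exceeded the mean of those promoters, by 6.68 and 5.25 percentage points. For summits within 50 bp of the TSS, 179 of all 477 members, the summit and mirrored windows share bases, so these values are not separate. Upstream peaks, at 41.7%, exceeded theirs by 1.47 points. Where summit and mirrored windows did not overlap and differed, the summit was the richer in 196 of 287 members (exact sign test, p = 5.4e-10), a contrast that promoters without a listed peak also carried. The call was lost in the own list of replicate 2 (1.13 times an even split, exact sign test, p = 0.202), among the peaks above the median signal of the list (1.16 times, p = 0.101) and within 100 bp of the TSS (1.08 times, p = 0.444).

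Of 20 motifs searched on both strands within 50 bp of the summit, 9 differed in frequency between members and upstream peaks, 2 higher and 7 lower at members. In the own lists of replicates 1 and 2, which hold fewer peaks, 1 was higher in each case, and 1 and 2 were lower. CTTTTC was at 71 of 477 members and 58 of 626 upstream peaks (14.9% and 9.27%, Fisher's exact test, odds ratio 1.71, adjusted p = 0.0150). Its call was lost in the pooled-read list (adjusted p = 0.0687, Fisher's exact test), in the own lists of replicate 1 and replicate 2 (0.859 and 0.0922), with TSSs up to 1000 bp away (0.134) and within 100 bp of the TSS (0.446). The letters were on the gene's own strand only in 26 of these members and on the opposite strand only in 43, and matches on the gene strand had their median start 47 bp downstream of the TSS. The TCT initiator itself lies at the start base, and 3 gene-strand matches began within 10 bp of it. CACACACA was at 27 members and 16 upstream peaks (5.66% and 2.56%, Fisher's exact test, odds ratio 2.29, adjusted p = 0.0282), in 19 members on the opposite strand only. It kept its call in both own lists and lost it in the pooled-read list (adjusted p = 0.0687, Fisher's exact test) and within 100 bp of the TSS (0.432).

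The 7 motifs that were less frequent at members included those of the TATA box and of the insulator proteins BEAF-32 and Su(Hw). AGGNGGC, from the site of the insulator protein CTCF, was at 6.71% of members and 4.79% of upstream peaks and did not pass (Fisher's exact test, adjusted p = 0.266). TATAAA, the TATA box, was at 6.08% of members and 15.8% of upstream peaks (Fisher's exact test, odds ratio 0.345, adjusted p = 7.1e-06). The letters were on the gene's own strand only in 18 members and 46 upstream peaks, and on the opposite strand only in 7 and 40. Gene-strand matches had their median start more than 100 bp from the TSS on either side, so letters were counted, not positioned TATA boxes. Among summits within 100 bp of the TSS the call was lost (Fisher's exact test, odds ratio 0.455, adjusted p = 0.0579). DRE was at 1 member and 20 upstream peaks (Fisher's exact test, odds ratio 0.0637, adjusted p = 0.00113). CGATA, the core read by the insulator protein BEAF-32 and also a part of DRE, was at 10.1% and 19.8% (Fisher's exact test, odds ratio 0.453, adjusted p = 8.1e-05). The other 4 were TGCATA of the Su(Hw) insulator site (1.89% and 6.39%), GCCAT of the Pho site (12.6% and 19.2%), TAATTA of homeodomain proteins (2.52% and 5.43%) and promoter motif 7, spelled CAGCNCTA, CAGCNCTG, CATCNCTA or CATCNCTG (6.71% and 11.3%), with a largest adjusted p of 0.0481 by Fisher's exact test. These 4 and DRE lost their calls in the own list of either replicate, and the BEAF-32 core in that of replicate 1 (adjusted p = 0.149, Fisher's exact test), whereas the TATA box kept its call in both. The Pho letters and motif 7 were also lost in the pooled-read list (adjusted p = 0.0710 and 0.0687, Fisher's exact tests), and the Pho and homeodomain letters and motif 7 among the peaks above the median signal of the list. With windows of 25 bp on each side the Pho and homeodomain letters did not pass, and without ribosomal protein genes motif 7 did not (adjusted p = 0.0641, Fisher's exact test). GC content differed between these windows, and its part in the motif differences was not tested. Restricted to summits within 100 bp of the TSS, 0 motifs were higher at members and 4 were lower (DRE, motif 7, and the BEAF-32 and Pho letters).

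**Figure D5:**
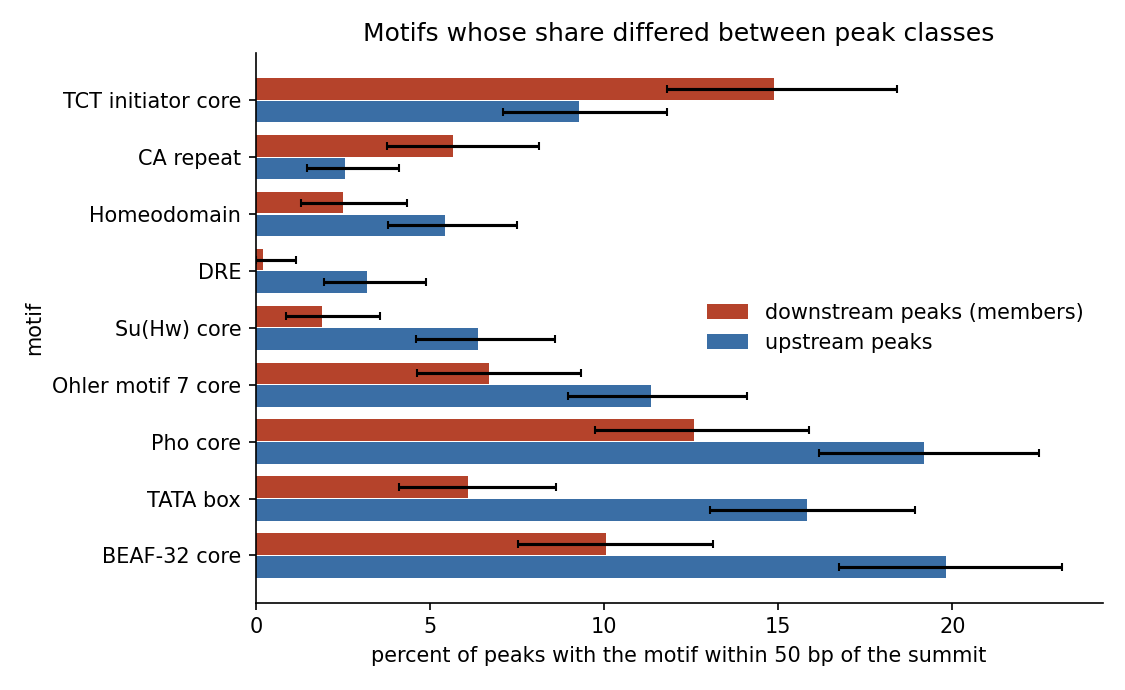
Percent of peaks (horizontal axis) with each motif within 50 bp of the summit, with exact 95% intervals, for downstream members in red and upstream peaks in blue. The 9 motifs past the adjusted threshold are shown, with the TCT initiator core at 14.9% against 9.27% and the BEAF-32 core at 10.1% against 19.8%.

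The same motifs were set beside promoters without a listed peak. Among the 434 members with a protein-coding nearest TSS, CACACACA was at 5.99% and CTTTTC at 15.2%, against 2.07% and 10.2% of windows at the same distances from the 11850 protein-coding TSSs without one. AGGNGGC, from the CTCF site, was at 7.14% of these members and 3.30% of those windows, and GAGAG at 16.6% and 11.96%. TATAAA was at 5.07% and 10.5%, TATCGATA at 0.230% and 0.784%, CGATA at 10.4% and 14.8%, GCCAT at 12.2% and 17.2%, TGCATA at 1.61% and 3.79% and TAATTA at 2.30% and 4.04%. Promoter motif 7 was the exception, at 6.91% of members and 4.16% of those windows. These shares are given without a test.

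The letters of the Initiator and of the downstream promoter element did not pass the test against upstream peaks. TCAGT, from the Initiator, was at 123 members and 140 upstream peaks (25.8% and 22.4%, Fisher's exact test, adjusted p = 0.266), and 60 of its 121 gene-strand matches at members began within 10 bp of the TSS. GGACGT, from the downstream promoter element, was at 19 members and 14 upstream peaks (3.98% and 2.24%, Fisher's exact test, adjusted p = 0.167). Its gene-strand matches at members had a median start 31 bp downstream. Windows at the same distances from TSSs without a listed peak held TCAGT in 23.4% and GGACGT in 2.17%.

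The window mirrored to the other side of the same TSS gave a comparison within each promoter. For the 298 members whose windows did not overlap, CTTTTC was at 48 summit windows and 24 mirrored windows (exact McNemar test, adjusted p = 0.0158). TATAAA was at 20 and 52 (exact McNemar test, adjusted p = 0.00182), CAGCTG, an E-box, at 9 and 33 (exact McNemar test, adjusted p = 0.00182), and GAGAG, the letters bound by GAGA factor, at 44 and 79 (exact McNemar test, adjusted p = 0.00244). The other 16 motifs did not pass, among them AGGNGGC at 22 and 8 (exact McNemar test, adjusted p = 0.0645) and CGATA at 32 and 31. With either replicate's own list in place of the conservative one, which gave fewer members, none of the 4 that differed passed. The same held among the peaks above the median signal of the list. In the pooled-read list the TATA box and the E-box passed, and with windows of 25 bp on each side the GAGA factor letters did.

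X carried fewer members than its share of downstream bases. X held 50 of 477 members (10.5%), against 16.3% of the downstream territory (exact binomial test, adjusted p = 0.00274), and it held 103 of 626 upstream peaks (16.5%). The direct comparison of members with upstream peaks gave an odds ratio of 0.595 (Fisher's exact test chosen after seeing the data, adjusted p = 0.00482). The call against the territory was lost among the peaks above the median signal of the list (0.938 times the share of bases, adjusted p = 0.782 by the exact binomial test) and in the own lists of replicate 2 (0.845 times) and replicate 1 (0.672 times). No member lay on arm 4 or Y (exact 95% interval up to 0.770% each), which made up 0.808% and 0.619% of the territory, and the other arms did not pass.

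The nearest TSS belonged to a protein-coding gene for 434 members (91.0%) and 581 upstream peaks (92.8%, Fisher's exact test, odds ratio 0.782, p = 0.313). In the own list of replicate 1 the odds ratio was 0.459 and passed the test (Fisher's exact test, p = 0.0112), and in that of replicate 2 it was 0.901. Of 13968 protein-coding genes, 420 (3.01%) had a TSS nearest to a member and 567 (4.06%) had one nearest to an upstream peak. Both held for 39 genes, 9.29% of the 420. Genes with several members mostly had them at separate start sites. Eip75B, an ecdysone-induced nuclear receptor gene, had 3, at 15, 84 and 257 bp from different TSSs, with signals of 59.8 and 39.7, 40.6 and 37.0, and 29.4 and 40.8. Shab, a potassium channel gene, had 73.7 and 46.6 at one start and 53.9 and 49.0 at another, and kay, the fly Fos gene, had 40.1 and 52.1, and 35.3 and 40.2.

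Ribosomal protein genes were the list with the most members. Of 87 genes for cytoplasmic ribosomal proteins 12 had a member (13.8%, against 3.01% of all protein-coding genes). An upstream peak was at 15 of the 87 (17.2%, against 4.06% of all protein-coding genes). The list was matched by symbol and leaves out RpL37-1, which also had a member, 17 bp from its TSS, at 59.7 in replicate 1 and 52.7 in replicate 2 and in each replicate's own list. The summits of the 12 listed genes had a median distance of 25 bp, a median signal of 54.4, and 6 were in each replicate's own list. RpS4 is given above, RpL30 had 90.5 in replicate 1 and 80.4 in replicate 2, and RpL24 had 79.4 and 75.03. Translation factors had 5 of 52 genes with a member (9.62%), with eEF5 at 55.8 and 65.5, eEF1alpha1 at 51.7 and 64.2, and eIF3h, whose summit was intronic, at 42.1 and 49.9. Of 73 mitochondrial ribosomal protein genes only mRpL17 had a member, in a coding exon, at 32.6 and 35.9.

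Among regulators, 2 of 25 Polycomb and trithorax group genes had a member (8%, against 3.01% of all protein-coding genes). Trl, which encodes GAGA factor and was also the single gene of 13 for insulator proteins, had 92.8 and 70.2, and Su(z)2 had 54.9 and 54.0. In the neuroblast list 3 of 24 genes had a member (12.5%), namely dlg1, a scaffold of the lateral membrane, at 65.7 and 58.6 in an intron, the Notch inhibitor numb at 53.1 and 46.6, and brat, a translational repressor. The cell cycle list had Dp, the partner of E2F, at 72.6 and 62.3, as 1 of 32 genes (3.12%). In signalling lists, the Wnt co-receptor arr had 29.3 and 48.3 (1 of 29 genes, 3.45%) and the Dpp pathway factor shn had 58.6 and 55.6 (1 of 19 genes, 5.26%). The lists of 29 and 32 genes were thus near the background share, and in lists this short 1 gene moves the share by several points.

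Lists of genes of differentiated cells had shares above the 3.01% of all protein-coding genes, each from 1 to 3 genes. Of 25 neuronal genes 3 had a member (12%): brp, a scaffold of the presynaptic active zone, at 96.2 in replicate 1 and 43.0 in replicate 2, futsch, a microtubule-associated protein, at 66.5 and 38.1, and comm, which controls Robo receptors in axon guidance, at 36.6 and 28.2. None of these 3 was found by each replicate on its own. The muscle list had sns, a myoblast fusion receptor, at 59.5 and 66.9, and the myosin gene Mhc at 34.6 and 33.2, as 2 of 31 genes (6.45%). The glial list had nrv2, a sodium pump subunit, at 40.3 and 35.4 and, at another start, 34.2 and 39.7, as 1 of 12 genes (8.33%). Upstream peaks were at 3 neuronal, 3 muscle and 2 glial genes (12%, 9.68% and 16.7%, against 4.06% of all protein-coding genes). Of the separate list of cytoplasmic actin, tubulin and ferritin genes 2 of 12 had a member (16.7%), alphaTub84B at 62.1 and 46.9 and Act5C at 30.9 and 55.2.

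Several lists had few or no members. Of 97 cuticle protein genes Cpr65Ec had one, in a coding exon, at 39.4 and 28.2. No member had its nearest TSS at any of 92 genes of oxidative phosphorylation, 48 of the proteasome, 179 chemosensory receptors, 25 heat shock genes, 8 Hox genes, 13 of glycolysis, 23 of Notch and EGFR signalling, 23 of chromatin enzymes and 25 of the RNA polymerase II machinery. In lists of 8 to 25 genes a count of 0 is close to the background share of 3.01%. The counts are descriptions, and no list was tested.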

How the data were processed

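ChIP-seq peak lists of 2 replicates were used as deposited by the authors on dm6, per the labels. The aligner, the peak caller and its settings are not given in the sources used here. Signal is the peak caller's value in the deposited lists, on a scale not given in the sources used here, and was used to rank and compare peaks. The deposited −log10 of the IDR gave the threshold, 2 for an IDR of 0.01. Members were taken from the conservative list of 2517 peaks, made from replicate 1 against replicate 2. The signal of a peak in a replicate came from the replicate's own ranked list (114279 and 119858 peaks), reached through the interval that the joint ranked list gives, and 2511 of 2517 peaks were matched in each.

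TSSs came from Ensembl release 115, without transposable elements (23697 by position and strand). Divergent pairs were protein-coding genes with 5' ends at most 1000 bp apart. Shares were compared by exact binomial, Fisher's exact, McNemar and sign tests, two-sided, with the Benjamini-Hochberg adjustment within a family and a threshold of 0.05 (Python 3.11.15, scipy 1.17.1, statsmodels 0.14.6). Intervals are Clopper-Pearson and cover counting error only, and peaks are not replicates. Read depth is unknown. The tests were checked on simulated data.

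The members, the 23 gene lists, the 20 motifs and the tests were chosen with earlier results of these data known. Genes were named by a rule: the 20 strongest members within 100 bp of a summit in each replicate's own list, the 2 strongest of each annotation class, up to 3 per gene list, those at the distance limits, and the 2 strongest off arm 2R that hold a printed motif. Eip75B, Shab and kay, and the genes with shared intervals or a missing signal, were chosen after their values were seen. Alternatives were the pooled-read list, each replicate's own list, the peaks above the median signal of the list, TSS distances of 250 and 1000 bp, protein-coding TSSs only, pair distances of 500 and 2000 bp, sharing distances of 50 and 200 bp, and windows of 25 bp on each side.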

Additional observations from a re-analysis of the deposited data

How the results depend on the processing

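Over 18 settings, 252 of 344 recomputed values kept their direction and side of the threshold or, as motif counts, stayed close. A motif count has no direction, and 5 motifs lower than upstream with the pooled-read list, against 7, were taken as close. A pair distance of 2000 bp is not counted, since a summit within 500 bp of both TSSs already limits a pair to 1000 bp and every value was that of the 1000 bp rule. The downstream share (0.551 to 0.799 times that of the bases), the share at 1 to 100 bp (1.84 to 4.29 times), the 5' UTR share (1.38 to 3.10 times), the coding exon share (0.0396 to 0.559 times), the signal against divergent pairs (odds ratio 0.352 to 0.591) and GC content against upstream peaks (odds ratio 2.66 to 5.30) did so under every alternative run for them. Leaving out a replicate moved the intron share to between 0.814 and 1.11 times, GC content against the mirrored window to between 1.13 and 1.18 times an even split, and the odds ratio of a protein-coding nearest TSS to between 0.459, which passed the test, and 0.901. It left 1 motif higher than upstream (1 in either case) and 1 to 2 lower, and 0 higher and 0 lower against the mirrored window (0 in either case), where CTTTTC was at 0.889 to 1.55 times.
Among the peaks above the median signal of the list the intron share was 0.814 times, the mirrored GC ratio was 1.16, 4 motifs were lower than upstream, and 0 were higher or lower than mirrored. With the pooled-read list 0 motifs were higher in either comparison. With a TSS distance of 1000 bp 1 motif was higher than upstream, and the share at 101 to 200 bp was 1.08 times that of the bases. Windows of 25 bp left 0 higher and 1 lower against the mirrored window. In settings added after seeing the data, summits within 100 bp gave an odds ratio of 0.721 for signal against upstream, a mirrored GC ratio of 1.08, and 0 higher and 4 lower motifs. GC above the list median gave odds ratios of 0.924 for signal against upstream and of 0.708 and 0.550 for support. Bases at the members' distances put introns at 1.05 times. The cause was not tested, except that fewer peaks enter the own and strongest lists.
No paired analysis was possible because there is a single group. Support was not recomputed without a replicate, since it needs the own lists of both, and the protein-coding share was not recomputed with protein-coding TSSs only, where every TSS is coding. Depth is unknown, so TSSs and peaks outside the list cannot be called unbound.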
